A study of Homo sapiens with 36 samples.

Results

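The genes described here are 48 genes of DNA replication and S phase, out of 15186 genes in a deposited table of RNA-seq counts from human U2OS cells. They were chosen by symbol and by no measured value, although earlier results of these data were known at the time. All 48 were found in the table and passed the filter on low counts. By role they comprise 10 origin licensing genes, 6 genes of helicase activation, 8 polymerase and primase genes, 11 genes of the sliding clamp, its loader, the single-strand binding protein RPA and lagging-strand processing, 4 genes of nucleotide supply, 5 S-phase entry regulators and 4 genes of replication-coupled chromatin. U2OS is an osteosarcoma cell line, and the line used here stably carries the glucocorticoid receptor alpha, so all groups share that transgene.

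Each cell received a pair of siRNAs. The conditions were siHic5siNS (siRNA labelled as against Hic-5, the transcriptional coregulator encoded by TGFB1I1), siCHD9siNS (against the chromatin remodeler CHD9), siBRMsiNS (against BRM, the SWI/SNF ATPase encoded by SMARCA2), the pairs siCHD9siHic5 and siBRMsiHic5 with both siRNAs, and the control siNSsiNS. At 48 h after transfection the cells received 100 nM dexamethasone (dex), a synthetic glucocorticoid, or ethanol vehicle for 8 h. There were 3 biological replicates of each of the 12 groups, made on different days, which gives 36 libraries.

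Replication origins are licensed in G1, when the origin recognition complex with CDC6 and CDT1 loads the MCM helicase onto DNA. In S phase the helicase is activated by CDC45 and GINS, primase with polymerase alpha starts each strand, and the polymerases delta and epsilon extend it on the PCNA clamp that RFC loads. Most of these genes are transcribed around the G1/S transition under E2F transcription factors, which the RB proteins restrain. Their transcript levels in a cell population are therefore commonly read together with the share of dividing cells. In bulk RNA a smaller share of cells in S phase and less of these transcripts per cell cannot be told apart.

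Promoter stretches of 5 of the 6 members with the smallest p for siHic5siNS under vehicle are shown first. These 6 were picked by p alone, and 32 members fell in that comparison. Of the 6, GINS1, E2F2, CDT1 and LIG1 hold letters that E2F proteins are known to bind in this stretch, and TK1 and PRIM2 do not. The stretches of PRIM2 are not printed. Each stretch has 150 bases before the transcription start and 30 from the start onwards, in RefSeq's GRCh38.p14, read in the direction of the gene, and capitals mark a match.
GINS1 (chr20:25407523-25407702, + strand): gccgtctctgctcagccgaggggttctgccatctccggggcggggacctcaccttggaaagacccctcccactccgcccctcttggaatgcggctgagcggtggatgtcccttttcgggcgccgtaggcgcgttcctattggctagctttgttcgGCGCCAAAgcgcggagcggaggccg
E2F2 (chr1:23531204-23531383, - strand): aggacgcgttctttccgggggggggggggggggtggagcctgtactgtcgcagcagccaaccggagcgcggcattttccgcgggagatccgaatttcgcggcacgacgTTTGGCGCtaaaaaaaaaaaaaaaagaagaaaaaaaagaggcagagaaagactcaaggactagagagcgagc
CDT1 (chr16:88803639-88803818, + strand): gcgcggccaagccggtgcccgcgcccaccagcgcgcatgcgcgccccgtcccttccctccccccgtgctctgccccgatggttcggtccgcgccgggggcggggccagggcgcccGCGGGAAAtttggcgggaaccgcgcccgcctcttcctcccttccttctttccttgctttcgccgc
LIG1 (chr19:48170315-48170494, - strand): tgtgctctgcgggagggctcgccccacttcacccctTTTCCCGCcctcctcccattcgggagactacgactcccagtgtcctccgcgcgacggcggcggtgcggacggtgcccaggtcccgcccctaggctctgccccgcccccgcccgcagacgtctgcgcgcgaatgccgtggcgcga
TK1, first listed start (chr17:78187175-78187354, - strand): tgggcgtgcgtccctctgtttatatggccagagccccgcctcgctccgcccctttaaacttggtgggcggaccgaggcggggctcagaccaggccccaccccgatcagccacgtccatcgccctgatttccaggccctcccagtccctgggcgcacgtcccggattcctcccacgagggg
TK1, other listed start (chr17:78187023-78187202, - strand): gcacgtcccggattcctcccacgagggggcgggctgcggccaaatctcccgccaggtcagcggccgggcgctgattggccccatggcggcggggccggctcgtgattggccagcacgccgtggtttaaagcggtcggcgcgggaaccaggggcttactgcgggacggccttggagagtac

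The search used the letters TTTCCCGC, TTTCGCGC, TTTGCCGC and TTTGGCGC on both strands, within 250 bases before and 50 after each listed start, and 40 of the 48 members had a promoter in the RefSeq table. Such letters occurred for 21 of these 40 members (52.5%), against 6.23% of 11792 genes of the deposited table and 3.99% of all 27305 genes with a promoter there. The pentamer CCAAT, the letters bound by NF-Y, occurred for 57.5% of the 40 members and for 42.4% of the genes of the deposited table. The letters TTTGAA, known as the cell cycle homology region of many mitotic genes, occurred for 1 member (2.5%), against 14.2% of the deposited genes. Both listed starts of TK1 and both of PRIM2 lacked a match to the E2F letters in this window. Among members with a promoter in the table, the E2F letters occurred for 15 of 27 that fell with siHic5siNS under vehicle and for 6 of 13 that were not called there.

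The libraries held 27442282 to 47148257 counts, and the members had a mean count per library of 261 to 6855, with 24 as the lowest count of a member in any library. The values below are counts scaled to library size (CPM) with edgeR's upper-quartile factors (scaled CPM). The row of 28S ribosomal RNA took 0.324% to 7.51% of the counts of a library. Under vehicle its ranges overlapped between siHic5siNS (0.642% to 3.44%) and siNSsiNS (0.430% to 5.46%). With dex they did not overlap, at 0.795% to 6.04% in siHic5siNS and 0.477% to 0.722% in siNSsiNS. All 8 mesenchymal markers were present, with summed levels of 5326 to 15403 scaled CPM. Of 7 epithelial markers, 5 were in the table, and the sum was 15.5 to 69.5 scaled CPM. Of 6 blood markers only ITGAM was in it, and the 4 endothelial markers all averaged under 10 scaled CPM.

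The siRNA targets were read first as a check of the labels. TGFB1I1 averaged 7.07 ± 3.58 scaled CPM in siHic5siNS and 28.4 ± 0.785 in siNSsiNS under vehicle (SD, n = 3 each), and was as low in siCHD9siHic5 (7.47 ± 1.59) and siBRMsiHic5 (5.23 ± 1.09). SMARCA2 averaged 8.76 ± 1.18 scaled CPM in siBRMsiNS and 7.56 ± 1.53 in siBRMsiHic5, against 30.3 ± 4.74 in siNSsiNS. CHD9 averaged 60.1 ± 8.94 scaled CPM in siCHD9siNS under vehicle, against 88.6 ± 9.46 in siNSsiNS. It was lower still in siBRMsiHic5, which received no CHD9 siRNA (45.2 ± 5.50 scaled CPM, log2 change -0.97 ± 0.18 against siNSsiNS, edgeR adjusted p = 0.000107), so a low CHD9 level was not particular to siCHD9siNS. In the libraries labelled siCHD9siHic5, however, the CHD9 transcript was at 143, 109.6 and 116 scaled CPM, above all 3 siNSsiNS libraries at 96.6, 78.1 and 91.1 (0.47 ± 0.18, adjusted p = 0.0293), so these libraries go against this part of their label. With dex CHD9 averaged 77.0 ± 16.6 scaled CPM in siCHD9siNS and 90.2 ± 8.04 in siNSsiNS. The libraries overlapped, and it was not called (-0.23 ± 0.18, edgeR adjusted p = 0.412). With dex it was called lower in siHic5siNS, which received no CHD9 siRNA (-0.49 ± 0.18, edgeR adjusted p = 0.0246). Groups are therefore called by their labels throughout, and nothing is assigned to a loss of CHD9.

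With siHic5siNS the replication genes were lower as a group than with siNSsiNS. Under vehicle 32 of the 48 members fell and 0 rose (edgeR quasi-likelihood test, Benjamini-Hochberg adjusted p under 0.05 over all 15179 genes tested). Among all tested genes 27.2% fell and 25.9% rose. The median log2 change of the members was -0.80, against -0.01 over all tested genes, and 47 of the 48 members were below 0. All 3 siHic5siNS libraries were below all 3 siNSsiNS libraries for 34 members, as for 31.6% of all tested genes. Within siHic5siNS under vehicle, replicate 2 held the lowest value of 46 members, with a median member level of 15.6 scaled CPM against 31.6 in replicate 1 and 39.7 in replicate 3. Its TGFB1I1 level was the highest of the group, at 11.2 scaled CPM against 5.27 and 4.74, and its CDKN1A level (the CDK inhibitor p21) was 1639 scaled CPM against 671 and 668. The part of these differences in the members' levels was not tested, but without this library 26 members fell and 0 rose.

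**Figure D1:**
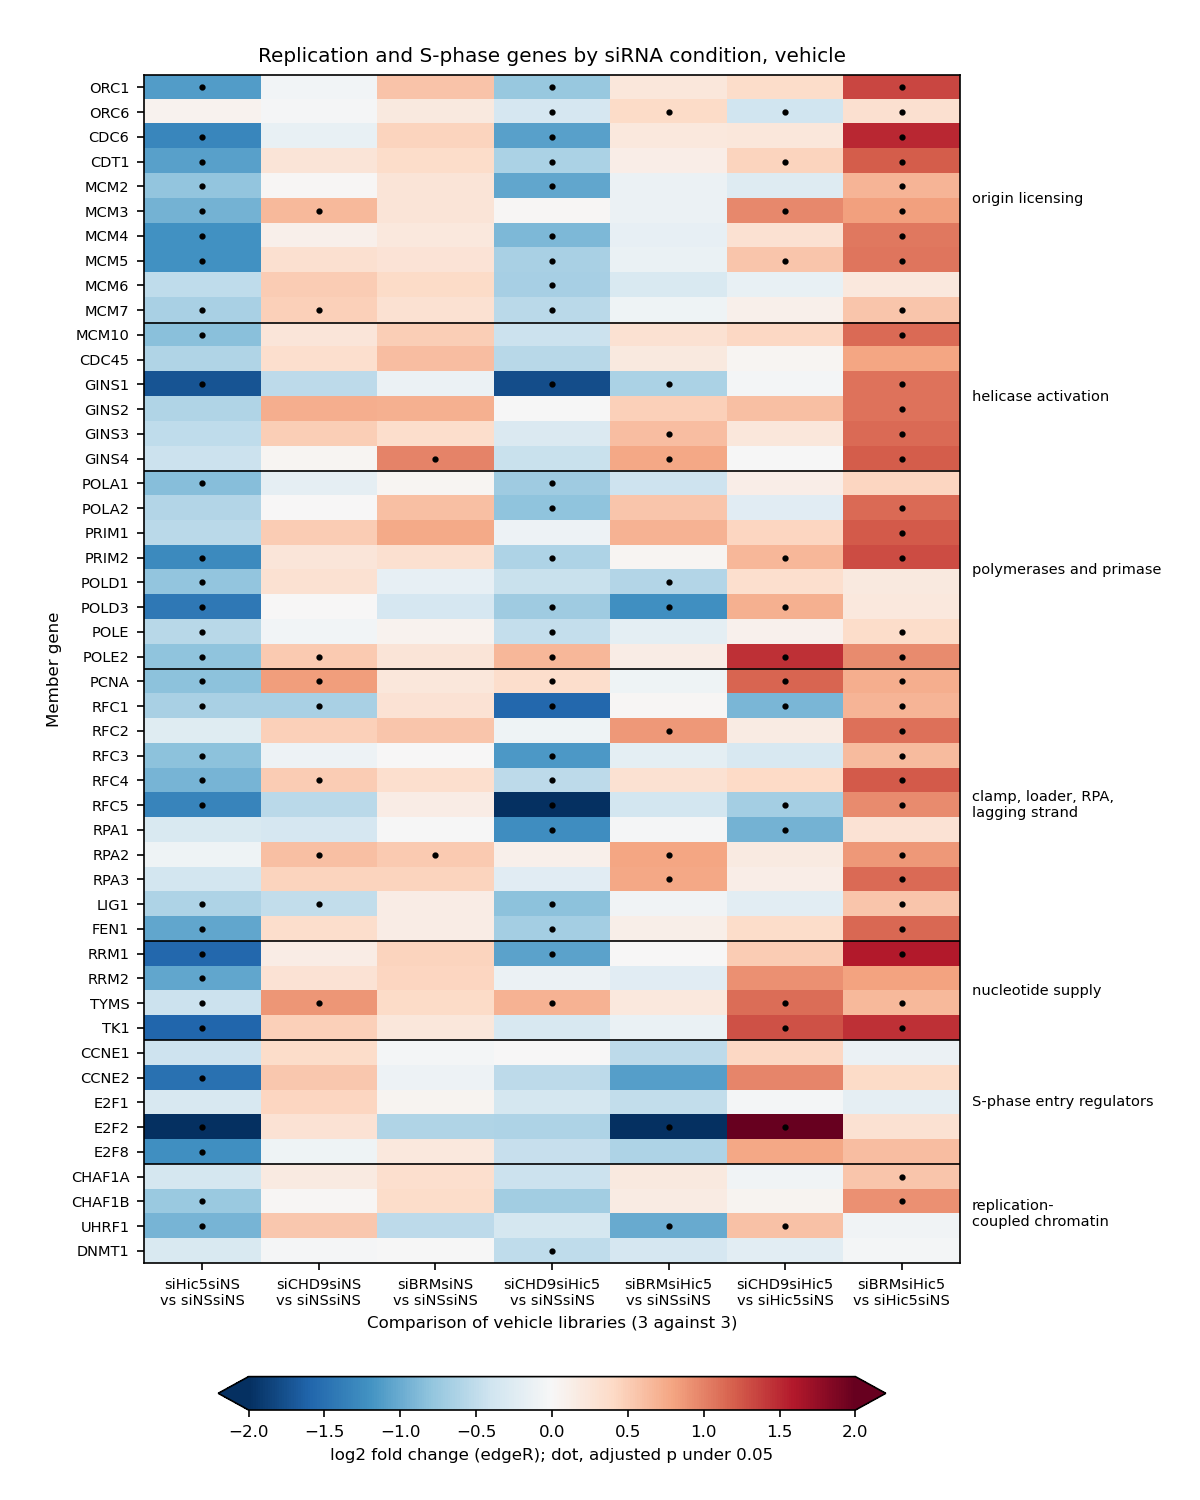
Log2 fold changes (edgeR, colour) of the 48 members, in rows by role, in 7 comparisons of vehicle libraries (columns, 3 libraries against 3); a dot marks an adjusted p under 0.05. The siHic5siNS column has 32 dots, all on lower members, and the siBRMsiHic5 against siHic5siNS column has 34, all on higher members.

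Origin licensing genes fell in 8 of 10 cases with siHic5siNS under vehicle. CDT1, which brings the MCM helicase to origins, had 21.0, 14.3 and 22.9 scaled CPM in the siHic5siNS libraries and 36.6, 44.3 and 42.0 in the siNSsiNS libraries. The groups did not overlap, and the log2 change was -1.08 ± 0.17 (SE, n = 3 each, edgeR adjusted p = 5.42e-06). CDC6, the other loading factor, changed by -1.31 ± 0.32, and ORC1, the largest subunit of the origin recognition complex, by -1.12 ± 0.24. Of the MCM subunits of the replicative helicase, MCM2, MCM3, MCM4, MCM5 and MCM7 fell, with log2 changes of -0.64 (MCM7) to -1.21 (MCM4). MCM6 did not pass the test (-0.51 ± 0.26, adjusted p = 0.0930). ORC6, a small subunit of the origin recognition complex, had 102, 105 and 125 scaled CPM in siHic5siNS and 104, 106 and 107 in siNSsiNS, and was the 1 member with a log2 change above 0 (0.06 ± 0.11).

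Of the 6 genes of helicase activation, GINS1 and MCM10 fell. GINS1, a subunit of the GINS complex that joins CDC45 and MCM, had 15.5, 7.73 and 16.4 scaled CPM in siHic5siNS, against 42.2, 46.4 and 42.6 in siNSsiNS. The groups lay far apart, and the log2 change of -1.73 ± 0.23 had the smallest p of all members (adjusted p = 5.79e-07). MCM10, which acts in origin firing, changed by -0.83 ± 0.28 (adjusted p = 0.0130). CDC45, GINS2, GINS3 and GINS4 had log2 changes of -0.43 to -0.61 and did not pass the test.

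Among the polymerases and primase 6 of 8 members fell. PRIM2, the large primase subunit, had 21.4, 13.2 and 20.8 scaled CPM in siHic5siNS and 40.5, 42.8 and 50.8 in siNSsiNS, a log2 change of -1.28 ± 0.18 (adjusted p = 1.38e-06). The human genome holds near-identical copies of part of this gene, so its level is uncertain. POLD3, a subunit of polymerase delta, had 19.7, 8.47 and 18.9 scaled CPM in siHic5siNS and 48.3, 39.4 and 39.7 in siNSsiNS, and changed by -1.43 ± 0.25. The polymerase subunits POLA1, POLD1, POLE and POLE2 also fell, with log2 changes of -0.56 (POLE) to -0.85 (POLA1). POLA2 and PRIM1 changed by -0.58 ± 0.26 and -0.53 ± 0.31 and did not pass the test.

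Of the clamp, clamp loader, RPA and lagging-strand genes 7 of 11 fell. LIG1, the ligase that joins Okazaki fragments, had 63.1, 59.4 and 67.8 scaled CPM in siHic5siNS and 88.6, 100.2 and 103 in siNSsiNS. The change was modest but tight between replicates, at -0.62 ± 0.10 on the log2 scale (adjusted p = 6.23e-06). FEN1, the flap endonuclease, changed by -1.04 ± 0.17, PCNA by -0.81 ± 0.13 and the loader subunit RFC5 by -1.31 ± 0.22. The loader subunits RFC1, RFC3 and RFC4 fell as well. RFC2 and the RPA subunits RPA1, RPA2 and RPA3 did not pass the test, with log2 changes of -0.08 (RPA2) to -0.36 (RPA3).

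All 4 genes of nucleotide supply fell. TK1, the cytosolic thymidine kinase, had 51.8, 25.3 and 61.3 scaled CPM in siHic5siNS, against 113, 166 and 139 in siNSsiNS. The groups did not overlap, with a log2 change of -1.59 ± 0.23 (adjusted p = 2.53e-06). RRM1, the large subunit of ribonucleotide reductase, changed by -1.58 ± 0.31, and its partner RRM2 by -1.03 ± 0.39 (adjusted p = 0.0285). The thymidylate synthase gene TYMS changed by -0.43 ± 0.16 (adjusted p = 0.0265); 39.1% of its exon bases lie over the opposite-strand gene ENOSF1, and whether reads were counted by strand is not given in the sources used here. MCM2, RRM2, GINS3, GINS4, POLA2 and PRIM1 share 10.9% to 35.1% of their exon bases with another annotated gene, so their levels are uncertain as well.

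Of the S-phase entry regulators E2F2, E2F8 and CCNE2 fell. E2F2, an activating E2F factor, had 4.82, 1.01 and 5.15 scaled CPM in siHic5siNS and 20.4, 32.8 and 20.9 in siNSsiNS. Its log2 change of -2.75 ± 0.37 (adjusted p = 8.44e-07) was the largest in size among the 48 members. E2F8, an atypical repressing E2F, changed by -1.23 ± 0.35, and CCNE2, a cyclin that activates CDK2, by -1.49 ± 0.52. Of the exon bases of CCNE2, 37% lie over the opposite-strand gene INTS8, so its level is uncertain. E2F1 and CCNE1 changed by -0.32 ± 0.37 and -0.41 ± 0.33 and did not pass the test. Among replication-coupled chromatin genes, CHAF1B of the histone chaperone CAF-1 (-0.74 ± 0.30) and UHRF1, which guides maintenance methylation (-0.93 ± 0.25), fell, while CHAF1A and the maintenance methyltransferase DNMT1 did not pass the test (-0.36 ± 0.21 and -0.30 ± 0.16).

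**Figure D2:**
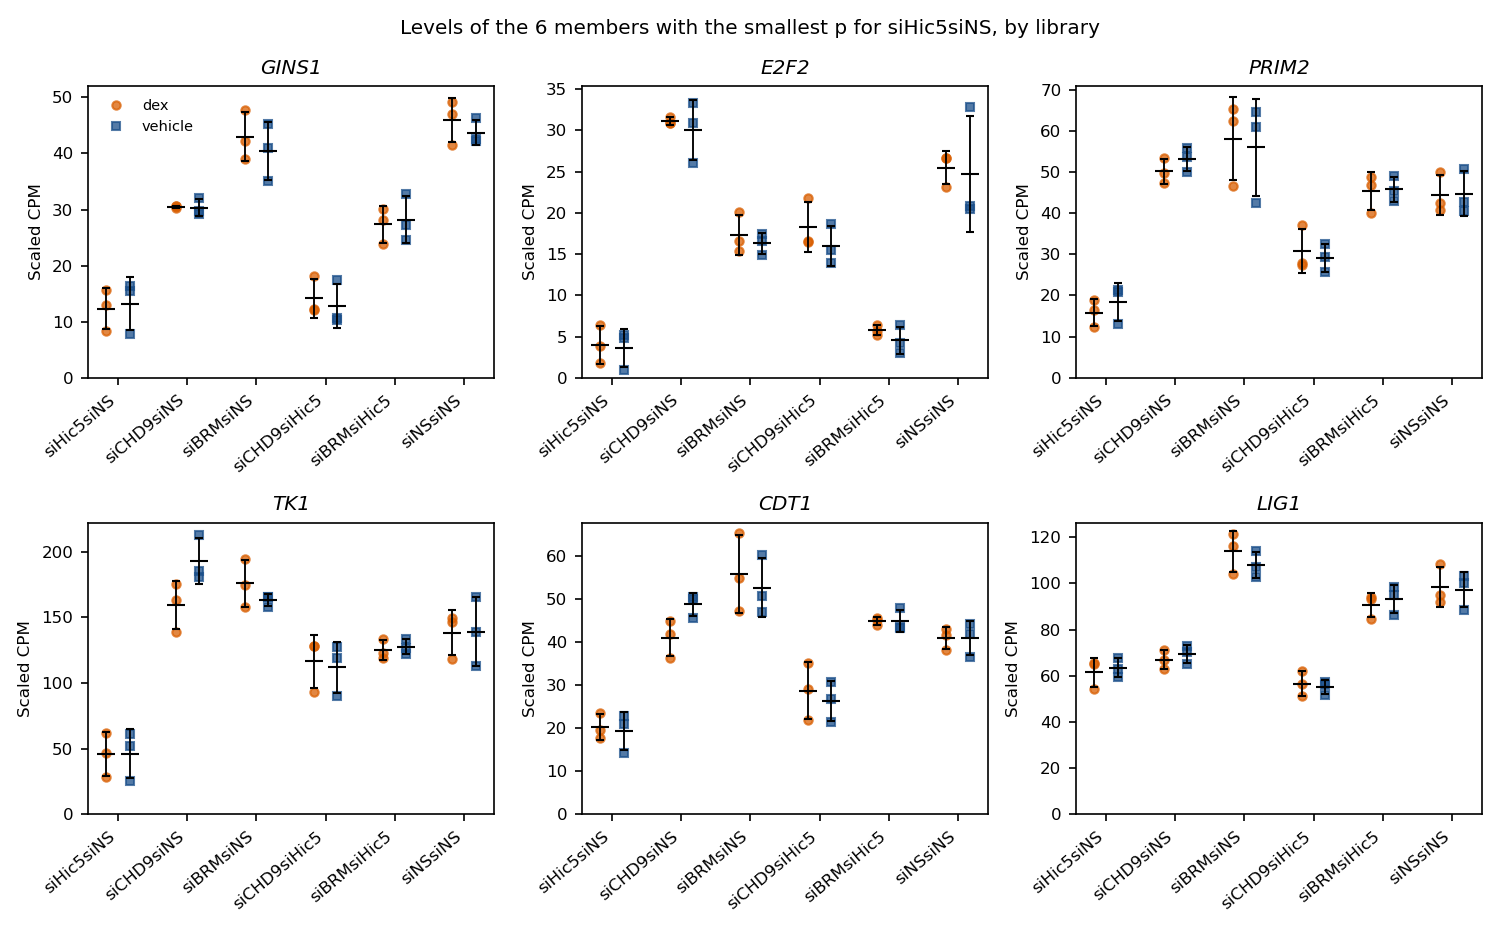
Scaled CPM (y axis, from 0) of the 6 members with the smallest p for siHic5siNS under vehicle, by siRNA condition (x axis), with dex (circles, left) and vehicle (squares, right); points are libraries, bars are the mean and SD of 3. In each of the 6 panels the siHic5siNS points lie below the siNSsiNS points under both treatments, as for GINS1 at 7.73 to 16.4 against 42.2 to 46.4 under vehicle.

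Among dex libraries 37 of 48 members fell and 0 rose, where 28.5% of all tested genes fell and 25.2% rose, and the median log2 change was -0.84. Replicate 2 again held the lowest value within siHic5siNS, for 44 members, with a median member level of 17.6 scaled CPM against 27.05 in replicate 1 and 35.9 in replicate 3; without it 30 members fell and 0 rose. All 32 members that fell under vehicle also fell with dex, as did MCM6, GINS3, GINS4, PRIM1 and RPA1. GINS1 had 13.0, 8.39 and 15.7 scaled CPM in siHic5siNS and 47.1, 49.2 and 41.6 in siNSsiNS with dex (log2 change -1.89 ± 0.23, adjusted p = 1.35e-07). PRIM2 changed by -1.49 ± 0.18, E2F2 by -2.66 ± 0.37, LIG1 by -0.68 ± 0.10, TK1 by -1.59 ± 0.23 and PCNA by -0.87 ± 0.13. Since vehicle and dex libraries with the same replicate number deviated together, these 2 comparisons are not independent.

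With BRM siRNA beside Hic-5 siRNA the members were higher than with Hic-5 siRNA alone, and they were about evenly above and below the control. In siBRMsiHic5 against siNSsiNS under vehicle 5 members fell and 6 rose, where 24.6% of all tested genes fell and 24.3% rose, and the median log2 change of the members was -0.04. Without siBRMsiHic5 vehicle replicate 3, 3 fell and 4 rose. With dex 5 members fell and 4 rose against siNSsiNS (23.1% and 22.4% of all tested genes), among them E2F2 (-2.14 ± 0.36), POLD3 (-1.20 ± 0.25), UHRF1 (-1.05 ± 0.25) and RFC2 (0.83 ± 0.19). Against siHic5siNS under vehicle, 34 of the 48 members were higher in siBRMsiHic5 and 0 were lower, where 25.2% of all tested genes were higher and 24.2% lower; the median log2 difference was 0.81 for the members and 0.02 for all tested genes. With dex 37 were higher and 0 lower (24.6% and 21.1% of all tested genes).

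The 34 members higher in siBRMsiHic5 than in siHic5siNS included 9 of 10 licensing genes, 5 of 6 helicase activation genes, 5 of 8 polymerase and primase genes, 10 of 11 clamp, loader, RPA and lagging-strand genes, 3 of 4 nucleotide genes and 2 of 4 chromatin genes. None of the 5 entry regulators passed this edgeR test under vehicle at an adjusted or an unadjusted p under 0.05, while with dex E2F8 was higher (0.86 ± 0.35, adjusted p = 0.0486). CDT1 had 43.6, 47.9 and 43.2 scaled CPM in siBRMsiHic5 and 21.0, 14.3 and 22.9 in siHic5siNS, a log2 difference of 1.21 ± 0.17 (adjusted p = 1.22e-06). RFC4, a clamp loader subunit, had 41.4, 36.6 and 40.5 scaled CPM in siBRMsiHic5 and 17.7, 13.8 and 19.0 in siHic5siNS (1.23 ± 0.17). For both genes every siBRMsiHic5 library was above every siHic5siNS library. FEN1 had 157, 165 and 168 scaled CPM in siBRMsiHic5, against 75.9, 51.0 and 93.02 in siHic5siNS (1.15 ± 0.17). The differences were 1.31 ± 0.18 for PRIM2, 1.47 ± 0.23 for TK1 and 1.13 ± 0.18 for RPA3.

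A few members stayed low in siBRMsiHic5. E2F2 had 3.03, 6.36 and 4.20 scaled CPM there, against 20.4, 32.8 and 20.9 in siNSsiNS (log2 change -2.44 ± 0.36, adjusted p = 6.68e-06). POLD3 had 12.9, 22.3 and 19.1 scaled CPM in siBRMsiHic5 and 48.3, 39.4 and 39.7 in siNSsiNS (-1.23 ± 0.25). UHRF1 had 32.2, 61.2 and 38.9 in siBRMsiHic5 and 90.2, 80.2 and 94.5 in siNSsiNS (-1.002 ± 0.25). No siBRMsiHic5 library of these 3 genes reached the lowest siNSsiNS library. GINS1 and POLD1 fell with smaller log2 changes, of -0.63 ± 0.22 and -0.59 ± 0.20. The members that rose above siNSsiNS were RPA2 (0.79 ± 0.16), RPA3 (0.77 ± 0.18), RFC2 (0.87 ± 0.19), GINS3, GINS4 and ORC6. RPA2, a subunit of the single-strand binding complex, had 80.8, 80.6 and 79.1 scaled CPM in siBRMsiHic5 and 45.8, 42.7 and 50.8 in siNSsiNS.

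Whether the Hic-5 siRNA effect differed with BRM siRNA was tested as an interaction among vehicle libraries. For 10 of the 48 members the log2 change with Hic-5 siRNA was higher beside BRM siRNA than without it, and for 0 it was lower, where 9.68% of all tested genes were higher and 11.3% lower. These members were CDT1, MCM5, GINS1, PRIM2, PCNA, RFC4, RPA3, LIG1, FEN1 and TK1. The interaction was 1.01 ± 0.24 for FEN1 (log2, edgeR adjusted p = 0.00402), 1.20 ± 0.31 for GINS1, 1.24 ± 0.32 for TK1 and 0.98 ± 0.25 for PRIM2. It was 0.90 ± 0.24 for RFC4 and 0.85 ± 0.23 for CDT1. The count was 6 without siNSsiNS replicate 2 or 3 or siHic5siNS replicate 2, and 18 without siHic5siNS replicate 3, each under vehicle. Between siBRMsiHic5 and siBRMsiNS directly 3 members fell, E2F2 (-1.84 ± 0.36), POLD3 (-0.89 ± 0.25) and MCM7 (-0.38 ± 0.13), where 13.6% of all tested genes fell. Most other members were lower too without being called. Only ORC6, GINS3, RFC2, RPA2 and RPA3 had a log2 change above 0 there. Same-numbered libraries deviated together in this comparison. With the replicate block 6 fell (MCM6, MCM7, POLA1, POLD3, PCNA and E2F2) and 2 rose (RFC2 and RPA3). Of all tested genes 16.5% fell and 12.5% rose with the block. Without the block, 5 fell on leaving out siBRMsiNS vehicle replicate 1, 2 fell and 3 rose without siBRMsiNS vehicle replicate 3, and 1 fell without siBRMsiHic5 vehicle replicate 1. MCM7 was no longer called without any of 5 of the 6 libraries (all but siBRMsiNS replicate 1), nor POLD3 without siBRMsiHic5 replicate 1 (-0.70, adjusted p = 0.0726).

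The libraries labelled siCHD9siHic5 split the members. Against siNSsiNS under vehicle 24 members fell and 3 rose, where 28.9% of all tested genes fell and 23.7% rose, and the median log2 change was -0.52 against -0.05 over all tested genes. Same-numbered libraries deviated together here, and with the block 28 fell and 3 rose (31.2% and 26.0% of all tested genes). Replicate 3 of siCHD9siHic5 stood above the others of its group, with a median member level of 46.4 scaled CPM against 30.9 in replicate 1 and 31.6 in replicate 2, and held the lowest value of 0 members. The siNSsiNS libraries had medians of 44.0 to 50.8. Without replicate 3, 26 members fell and 3 rose. The licensing genes fell in 9 of 10 cases, with MCM3 the exception (0.03 ± 0.19), as did 7 of 11 genes of the clamp, loader, RPA and lagging strand. RFC5, a loader subunit, had 11.1, 8.70 and 16.5 scaled CPM in siCHD9siHic5 and 50.1, 49.9 and 46.0 in siNSsiNS (log2 change -2.002 ± 0.22, adjusted p = 3.41e-08). RPA1, the large subunit of RPA, had 38.6, 38.0 and 60.0 scaled CPM in siCHD9siHic5 and 104, 114 and 106 in siNSsiNS (-1.24 ± 0.14). RFC1, the largest loader subunit, had 39.98, 28.99 and 55.5 in siCHD9siHic5, against 127, 113 and 128 in siNSsiNS (-1.56 ± 0.20). Replicate 3 of siCHD9siHic5 was the highest of its group for each of these 3 genes and was below every siNSsiNS library. GINS1 changed by -1.77 ± 0.23, RFC3 by -1.15 ± 0.22 and LIG1 by -0.83 ± 0.10.

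PCNA, POLE2 and TYMS rose in siCHD9siHic5. PCNA, the sliding clamp, had 166, 180.1 and 175 scaled CPM there and 129, 136 and 144 in siNSsiNS (0.35 ± 0.13, adjusted p = 0.0225). POLE2, a subunit of polymerase epsilon, had 34.9, 43.7 and 40.1 scaled CPM in siCHD9siHic5 and 22.9, 24.5 and 27.6 in siNSsiNS (0.66 ± 0.18). TYMS had 73.7, 82.6 and 91.6 in siCHD9siHic5 and 43.6, 46.4 and 63.8 in siNSsiNS (0.69 ± 0.16). With dex 23 members fell and 2 rose in siCHD9siHic5 (29.2% and 22.3% of all tested genes), 13 fell without siCHD9siHic5 dex replicate 1 and 14 without replicate 2. Replicate 3 was again the highest in median member level, at 45.4 scaled CPM against 33.0 and 31.4, and without it 25 fell and 2 rose. With the block 25 fell and 3 rose (32.0% and 24.7% of all tested genes), PCNA now among those that rose.

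**Figure D3:**
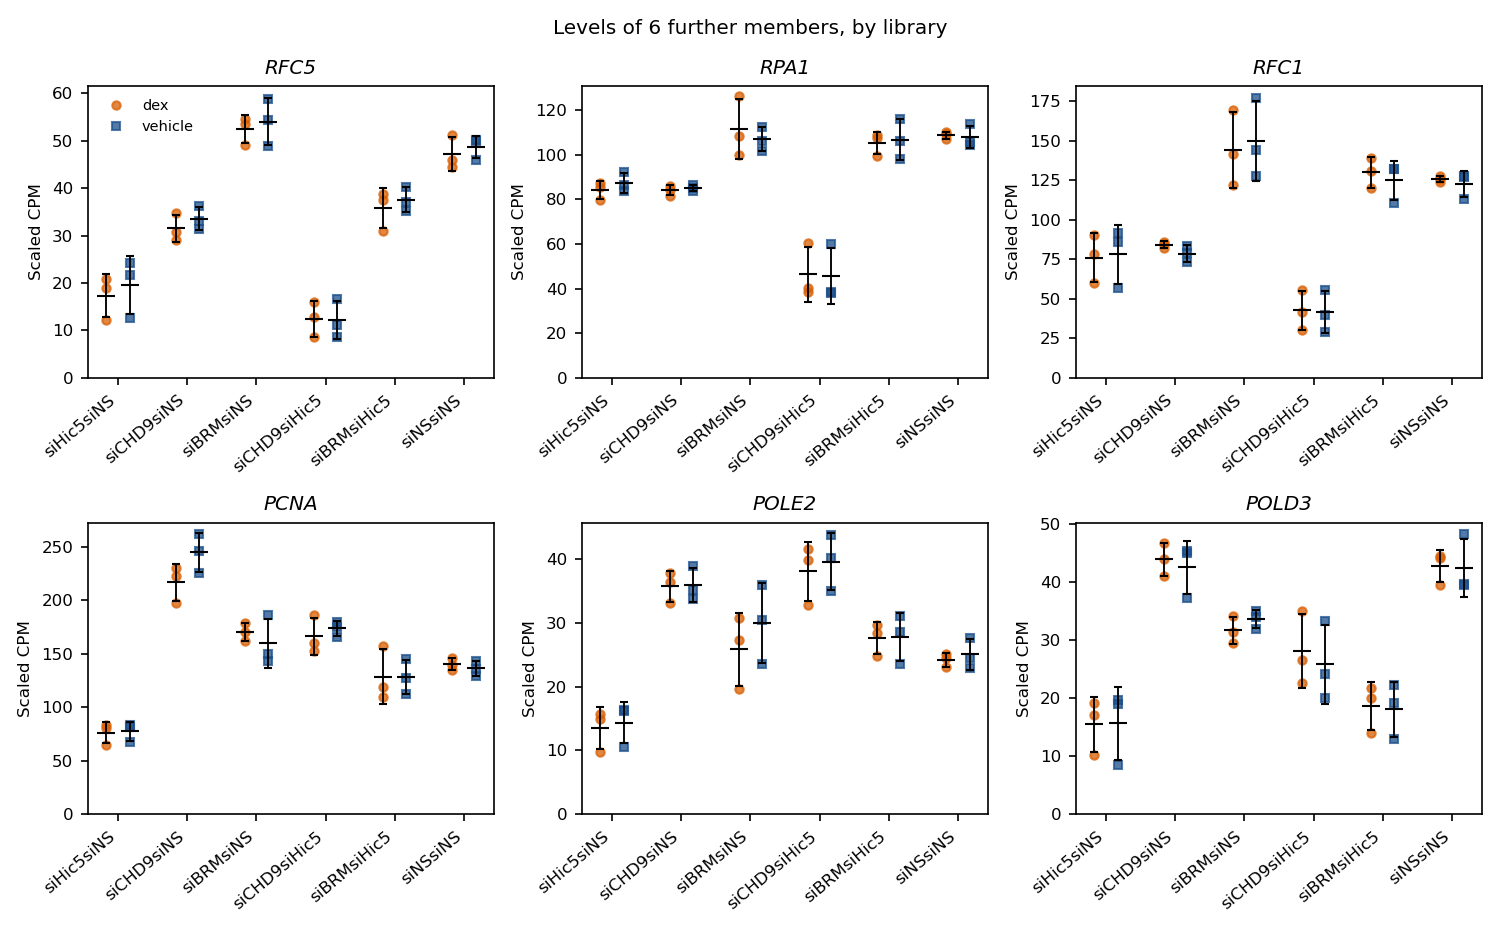
Scaled CPM (y axis, from 0) of RFC5, RPA1, RFC1, PCNA, POLE2 and POLD3 by siRNA condition (x axis), with dex (circles, left) and vehicle (squares, right); points are libraries, bars are the mean and SD of 3. RFC5, RPA1 and RFC1 are lowest in siCHD9siHic5, where POLE2 and PCNA lie above siNSsiNS (PCNA not called with dex without the block). POLD3 is low in siHic5siNS and siBRMsiHic5 and, to a lesser degree, in siCHD9siHic5.

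Against siHic5siNS under vehicle 11 members were higher in siCHD9siHic5 and 4 lower, where 22.0% of all tested genes were higher and 25.7% lower. Here too same-numbered libraries deviated together. With the block 15 were higher (GINS2, RFC4, RRM2 and E2F8 in addition) and 4 lower (24.4% and 28.2% of all tested genes). Without siCHD9siHic5 vehicle replicate 3, 7 were higher and 5 lower. E2F2 had 13.9, 15.5 and 18.7 scaled CPM in siCHD9siHic5 and 4.82, 1.01 and 5.15 in siHic5siNS, a log2 difference of 2.12 ± 0.36 (adjusted p = 2.56e-05). PCNA was higher by 1.16 ± 0.13, POLE2 by 1.46 ± 0.18, TYMS by 1.12 ± 0.16 and TK1 by 1.28 ± 0.23 on the log2 scale. RPA1 had 38.6, 38.0 and 60.0 scaled CPM in siCHD9siHic5 and 92.4, 86.4 and 83.6 in siHic5siNS (-0.94 ± 0.14), and RFC1, RFC5 and ORC6 were lower as well. With dex 18 members were higher and 3 lower (22.4% and 25.4% of all tested genes); without siHic5siNS dex replicate 2 these counts were 8 and 4, and without siCHD9siHic5 dex replicate 3 they were 9 and 4. With the block 22 were higher and 3 lower (24.7% and 27.8% of all tested genes).

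Against siCHD9siNS under vehicle 36 members were lower in siCHD9siHic5 and 0 higher, where 21.8% of all tested genes were lower and 14.9% higher. MCM7 had 126, 131 and 151 scaled CPM in siCHD9siHic5 and 289.5, 268 and 266 in siCHD9siNS (-1.01 ± 0.13, adjusted p = 2.25e-06). The differences were -1.47 ± 0.22 for RFC5, -0.90 ± 0.14 for RPA1, -1.03 ± 0.17 for RFC4, -1.02 ± 0.17 for FEN1 and -1.24 ± 0.22 for GINS1. Without siCHD9siHic5 vehicle replicate 1, 22 members were lower. With the block 42 were lower and 0 higher (24.8% and 17.5% of all tested genes), MCM10, GINS2, GINS4, PRIM1, E2F1 and CHAF1B in addition. The Hic-5 siRNA effect with CHD9 siRNA minus that without it was called for 3 members, where 21.2% of all tested genes were called. It was 1.84 ± 0.49 for E2F2 and 0.94 ± 0.25 for POLE2 (log2, adjusted p = 0.00854 and 0.00882), and -0.60 ± 0.20 for RPA1 (adjusted p = 0.0302). RPA1 was not called without siCHD9siHic5 vehicle replicate 1 or 2 (-0.49 and -0.48) nor without any of siNSsiNS replicate 1 or 3, siHic5siNS replicate 1 and siCHD9siNS replicate 1 or 3. With the replicate block 2 members were higher and 3 lower in this interaction (11.7% and 15.4% of all tested genes). Not every same-numbered pair deviated together there.

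With siCHD9siNS under vehicle 7 rose (MCM3, MCM7, POLE2, PCNA, RFC4, RPA2 and TYMS) and 2 fell (RFC1 and LIG1), where 15.7% of all tested genes rose and 16.5% fell. PCNA had 262, 226 and 246 scaled CPM in siCHD9siNS and 129, 136 and 144 in siNSsiNS (log2 change 0.84 ± 0.13, adjusted p = 1.76e-05). TYMS had 92.5, 85.6 and 106 scaled CPM in siCHD9siNS and 43.6, 46.4 and 63.8 in siNSsiNS (0.88 ± 0.16). LIG1 had 73.0, 65.3 and 70.1 in siCHD9siNS, against 88.6, 100.2 and 103 in siNSsiNS (-0.49 ± 0.10). The groups of these 3 genes did not overlap. RPA2 changed by 0.60 ± 0.16, MCM7 by 0.48 ± 0.13 and MCM3 by 0.66 ± 0.20, and MCM3 was not called without siCHD9siNS vehicle replicate 1 (0.59, adjusted p = 0.0527). Same-numbered libraries of siCHD9siNS and siNSsiNS deviated together, and with the replicate block 13 rose and 4 fell (19.0% and 19.1% of all tested genes).

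With dex 4 members rose in siCHD9siNS (MCM7, POLE2, PCNA and TYMS) and 2 fell (RFC1 and LIG1), where 7.96% of all tested genes rose and 10.7% fell. The log2 changes were 0.63 ± 0.13 for PCNA, 0.81 ± 0.16 for TYMS and -0.55 ± 0.10 for LIG1. With the replicate block 7 rose and 4 fell (10.7% and 13.7% of all tested genes). Only these 3 genes (2 higher, 1 lower) were called without replicate 1 or 2 of siNSsiNS or replicate 1 or 3 of siCHD9siNS among the dex libraries. The CHD9 transcript itself was not called lower in siCHD9siNS with dex, as given above.

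With siBRMsiNS under vehicle 2 members rose and 0 fell, where 4.25% of all tested genes rose and 2.19% fell. RPA2 had 50.3, 60.5 and 90.0 scaled CPM in siBRMsiNS and 45.8, 42.7 and 50.8 in siNSsiNS, with overlapping groups (0.53 ± 0.16, adjusted p = 0.0410). GINS4 had 32.3, 34.3 and 72.0 in siBRMsiNS and 18.7, 21.3 and 29.6 in siNSsiNS (0.99 ± 0.30, adjusted p = 0.0449). Replicate 3 was the highest siBRMsiNS library for both genes, and without it neither was called (0.26 for RPA2 and 0.52 for GINS4, adjusted p = 0.493 and 0.494). Neither was called without siNSsiNS vehicle replicate 1 or 2, and 7 members rose without siBRMsiNS vehicle replicate 1. With dex 4 rose (RFC2 by 0.64 ± 0.19, MCM7 by 0.42 ± 0.13, RPA2 by 0.48 ± 0.16 and RPA3 by 0.55 ± 0.18 on the log2 scale), where 7.08% of all tested genes rose. None of the 4 was called without siNSsiNS dex replicate 1 or 2 or siBRMsiNS dex replicate 3, and 7 were called without siBRMsiNS dex replicate 1.

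**Figure D4:**
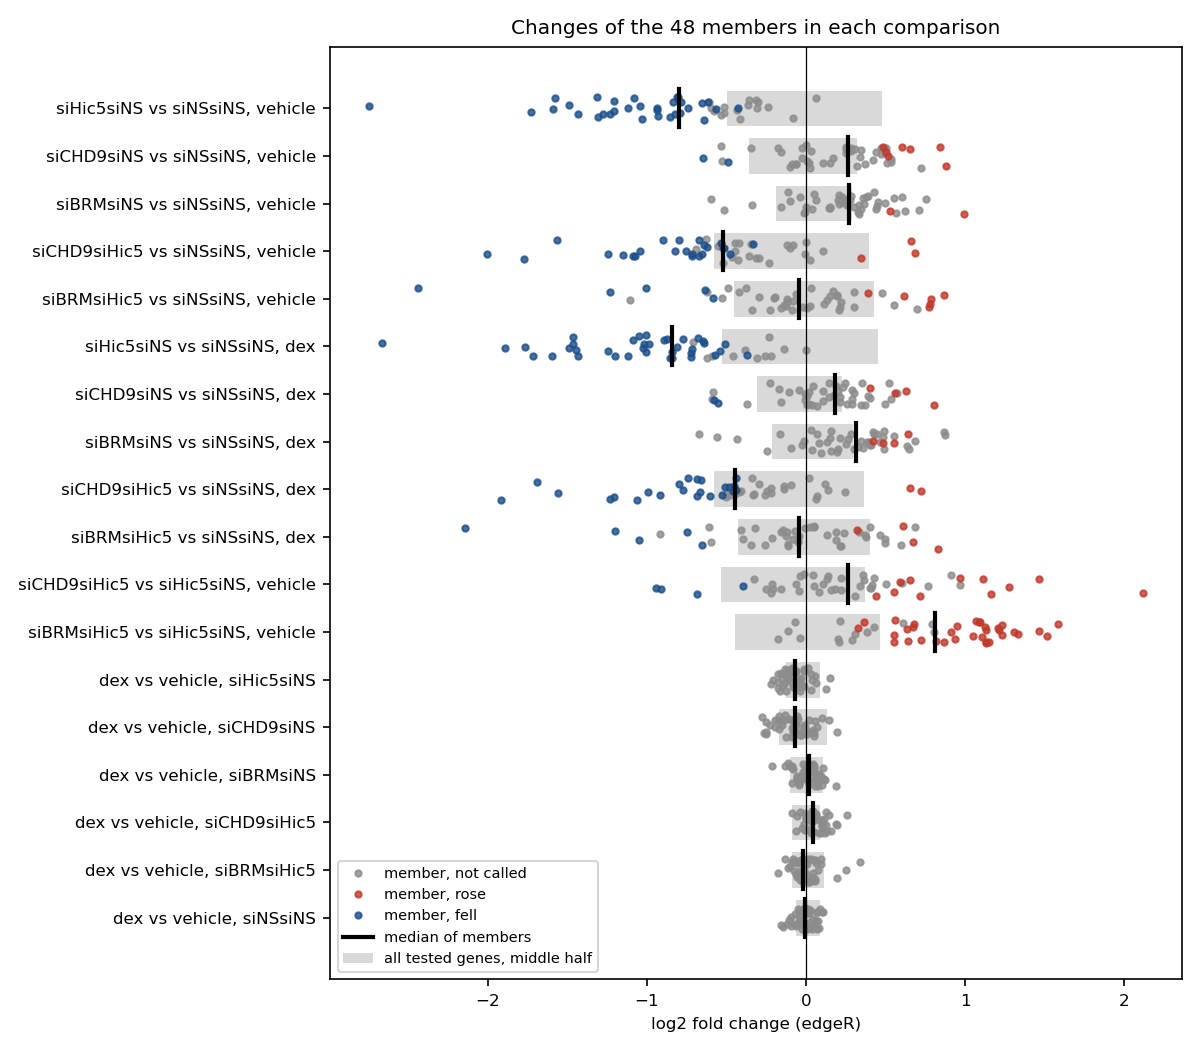
Log2 fold changes (x axis, edgeR) of the 48 members in 18 comparisons (rows); points are members, coloured by call, black bars are the members' medians and grey bars the interquartile range of all tested genes. The medians lie at -0.80 and -0.84 for siHic5siNS against siNSsiNS, at 0.81 for siBRMsiHic5 against siHic5siNS, and between -0.07 and 0.04 in the 6 dex comparisons.

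Dex for 8 h called none of the members in the fit without pairs. There 0 of 48 members were called in any of the 6 conditions, and 0 had an unadjusted p under 0.05; DESeq2 also called 0. Of all tested genes dex called 0.876% in siHic5siNS, 0.962% in siCHD9siNS, 0.382% in siBRMsiNS, 0.455% in siCHD9siHic5, 0.501% in siBRMsiHic5 and 0.343% in siNSsiNS, in either direction. Median log2 changes of the members were -0.07 in siHic5siNS, -0.07 in siCHD9siNS, 0.02 in siBRMsiNS, 0.04 in siCHD9siHic5, -0.02 in siBRMsiHic5 and -0.01 in siNSsiNS. The median half-width of a member's 95% interval in siNSsiNS was 0.44 on the log2 scale without the pairs and 0.15 with them.

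Vehicle and dex libraries with the same replicate number deviated together, and with these pairs as a block 8 members fell with dex in siCHD9siNS, where 12.9% of all tested genes fell. These were CDT1, MCM7, POLD1, PCNA, RFC4, RPA3, FEN1 and TK1, with log2 changes of -0.17 (MCM7) to -0.28 (TK1). RFC4 had 38.3, 38.0 and 37.2 scaled CPM with dex and 45.5, 46.3 and 44.6 with vehicle in siCHD9siNS (-0.26 ± 0.06 with the block, adjusted p = 0.00562). FEN1 had 168, 161 and 155 with dex and 206, 191 and 177 with vehicle there (-0.25 ± 0.05). In both genes each dex library was below every vehicle library. The count was 2 without pair 1 and 5 without pair 3. PRIM2 in siHic5siNS (-0.21 ± 0.06, adjusted p = 0.0444) and POLE2 in siBRMsiNS (-0.21 ± 0.06, adjusted p = 0.0385) were the other members that fell with the block, where 4.55% and 1.52% of all tested genes fell.

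Whether siRNA changed the dex response was tested as the response in each of 5 conditions minus that in siNSsiNS. Without the pairs 0 members were called in these 5 tests, and 0 had an unadjusted p under 0.05; of all tested genes 0.00659% were called for siCHD9siNS and 0.00% in each of the other 4 tests. With them RPA3 had a lower dex response in siCHD9siNS than in siNSsiNS (-0.33 ± 0.08, adjusted p = 0.0333), where 1.84% of all tested genes were lower. No other member was called with the block, although 1 to 8 members had an unadjusted p under 0.05 in each of the 5 tests.

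Other cell cycle lists were set beside the members for description, and no list was tested as a set. Of 40 other replication and S-phase genes, 29 fell and 3 rose with siHic5siNS under vehicle, with a median log2 change of -0.75. Among all tested genes 27.2% fell and 25.9% rose there. DBF4, the activator of the CDC7 kinase, had 26.4, 16.4 and 32.7 scaled CPM in siHic5siNS and 106, 98.7 and 86.7 in siNSsiNS (-1.95 ± 0.20), and CCNA2, cyclin A, had 36.1, 16.0 and 36.6 against 110.3, 117 and 103 (-1.90 ± 0.24). Of 35 mitotic genes 33 fell and 0 rose, with a median of -1.38. CCNB1, cyclin B1, had 79.2, 68.4 and 85.3 scaled CPM in siHic5siNS and 260.5, 287 and 271 in siNSsiNS (-1.81 ± 0.17), and KIF20A, a kinesin of cytokinesis, changed by -2.47 ± 0.25. In siBRMsiHic5 against siHic5siNS 32 of the 35 mitotic genes were higher and 0 lower, with a median of 1.07. Of the other 40 replication genes 28 were higher and 2 lower, where under vehicle 25.2% of all tested genes were higher and 24.2% lower. In siCHD9siHic5 against siHic5siNS 20 mitotic genes were higher and 1 lower, and 7 of the other replication genes were higher and 6 lower. Of all tested genes 22.0% were higher and 25.7% lower in that comparison under vehicle.

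Of 23 genes of G1 cyclins, CDK inhibitors and the RB pathway, 10 fell and 3 rose with siHic5siNS under vehicle. Among all tested genes 27.2% fell and 25.9% rose. CCND1, cyclin D1, had 335, 269 and 292 scaled CPM in siHic5siNS, against 1585, 1609.8 and 1391 in siNSsiNS (-2.36 ± 0.30, adjusted p = 3.59e-07). It was also low in siBRMsiHic5 (420.4, 376 and 275) and in siCHD9siHic5 (411, 439 and 409), with log2 changes of -2.10 ± 0.30 and -1.87 ± 0.30 against siNSsiNS. CDKN2B, the CDK4/6 inhibitor p15, had 16.5, 23.1 and 23.6 scaled CPM in siHic5siNS and 7.18, 6.37 and 5.48 in siNSsiNS (1.73 ± 0.21). Its level was 5.03, 4.01 and 3.88 in siBRMsiHic5, a log2 difference of -2.29 ± 0.21 from siHic5siNS. CDKN1B, the CDK inhibitor p27, fell with siHic5siNS (-1.39 ± 0.21), and CDKN1A did not pass the test (0.91 ± 0.40, adjusted p = 0.0559).

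**Figure D5:**
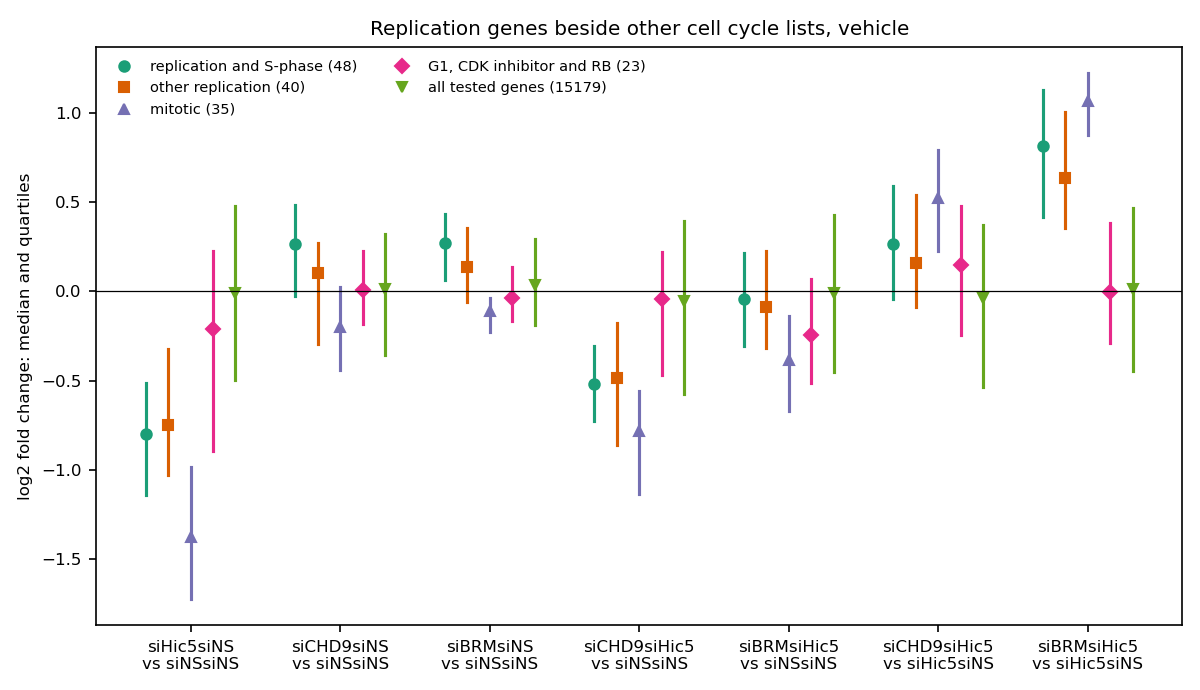
Median log2 fold change (y axis; lines span the quartiles over genes) of the 48 members, 40 other replication genes, 35 mitotic genes, 23 G1, CDK inhibitor and RB genes and all 15179 tested genes in 7 comparisons of vehicle libraries (x axis). For siHic5siNS against siNSsiNS the medians of the members (-0.80), other replication genes (-0.75) and mitotic genes (-1.38) lie below 0, and for siBRMsiHic5 against siHic5siNS they lie above 0.

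Per kilobase of annotated exon, PCNA had the highest member level in siNSsiNS under vehicle (92.7 ± 4.82 scaled CPM per kb, SD, n = 3), ahead of TK1 (74.8 ± 14.1), FEN1 (60.9 ± 4.28), MCM3 (49.1 ± 2.67) and MCM7 (44.8 ± 3.91). The levels of TK1 and FEN1, and of MCM3 and MCM7, lay within a combined SD of each other. CHAF1B and E2F8 were lowest, at 2.20 and 2.06 scaled CPM per kb. Across the 36 libraries the members most like the median of the other members in log2 level were RRM1, MCM4 and MCM5 (Pearson r of 0.971, 0.968 and 0.958). The least alike were ORC6 (0.335), RPA1 (0.422) and CCNE1 (0.440). These correlations describe libraries that share siRNA conditions and replicate numbers, and they carry no test.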

How the data were processed

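RNA-seq was done on 36 libraries in 12 groups of 3. Reads were mapped with TopHat2 2.1.1 to GRCh38 and edgeR was used, per the submitters' processing notes; the counter, annotation and strand setting were not given in the sources used here. What the authors deposited are whole-number counts per gene, and they were used as counts, although their label speaks of normalised CPM. Analyses used R 4.3.3, edgeR 4.0.16 and DESeq2 1.42.0. Of 15186 genes, 15179 exceeded a scaled CPM of 1 in 3 or more libraries and were kept. All libraries were fitted with 12 group means (24 residual degrees of freedom) by edgeR's quasi-likelihood test with upper-quartile factors. Results were adjusted by Benjamini-Hochberg over all tested genes and called at 0.05. This fit takes all 36 libraries as independent, although same-numbered vehicle and dex libraries of a condition deviated together. Its 24 degrees of freedom can therefore overstate the replication. Each fold change has the group named first on top. Of 29 comparisons, 6 were added after the data were seen (the doubles against siHic5siNS with dex, and Hic-5 siRNA beside each remodeler siRNA with its interaction).

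The members and lists were chosen with earlier results of these data known. Members given by library are the up to 6 called with the smallest p in a comparison, or, with fewer than 2 called, the 3 with the smallest p; POLD3, ORC6 and others given beyond these were chosen after their values were seen. Up to 4 called genes of each other list followed the same order. Exon lengths and overlaps came from GENCODE 29; 22 members share exon bases with another annotated gene, 8 of them at least 10%.

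The labels place the replicates of a condition on different days but do not say that a number marks a shared day, so replicate numbers were checked by correlating residuals. All 18 vehicle and dex pairs correlated (r of 0.458 to 0.922), and 8 of 18 siRNA comparisons had every pair above 0.1 (siCHD9siNS and siCHD9siHic5 against siNSsiNS and siCHD9siHic5 against siHic5siNS, under both treatments, siCHD9siHic5 against siCHD9siNS, and siBRMsiHic5 against siBRMsiNS). Libraries of different numbers were not correlated as a reference, so this does not show that a number marks a shared day. For siRNA comparisons the block was an additive term for replicate number, shared by all 12 groups, and did not pair the compared libraries alone. For dex it was a term for each of the 18 pairs. Blocked counts of the 8 comparisons, and of the interaction with CHD9 siRNA, stand beside the unblocked ones. That of the interaction with BRM siRNA is given only under processing. No 2 libraries of a group were copies: over 36 pairs the chi-square of their counts, per degree of freedom, was never under 9.41. The pipeline was tested on simulated data.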

Additional observations from a re-analysis of the deposited data

Results flagged for a closer look

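The test of whether the Hic-5 siRNA effect differed with a remodeler siRNA passed for members in both families. With BRM siRNA minus without it, 10 of the 48 members were called in vehicle libraries, all higher. Of all tested genes 9.68% were higher and 11.3% lower in that test. The 6 given with values were FEN1 (1.01 on the log2 scale), PRIM2 (0.98), TK1 (1.24), GINS1 (1.20), RFC4 (0.90) and CDT1 (0.85). With CHD9 siRNA minus without it, 3 of the 48 members were called, namely E2F2 (1.84), POLE2 (0.94) and RPA1 (-0.60). This is a smaller share than the 21.2% of all tested genes called there. RPA1 lost its call on leaving out any of several single libraries, as given above. The libraries labelled siCHD9siHic5 that enter the second test have more CHD9 transcript than siNSsiNS. The groups of 3 libraries were not tested for single outlying samples.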

How the results depend on the processing

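The counts of members called with siHic5siNS against siNSsiNS (26 to 39 under vehicle over all alternatives that leave out 1 library), and with siBRMsiHic5 against siHic5siNS (26 to 38 under vehicle), stayed within 1.5 times their main value. Counts for the weaker comparisons moved. The counts in this section are of members called in either direction, without the share of all tested genes. They describe how the counts depend on the processing and are not read as results about the members. DESeq2 called 14 members for siCHD9siNS against siNSsiNS under vehicle, 10 with dex and 7 for siBRMsiNS with dex. A fit of the compared groups alone called 22 for siCHD9siNS under vehicle and 15 with dex, 0 for siBRMsiNS under either treatment, 19 for siBRMsiHic5 against siNSsiNS under vehicle and 21 with dex, 1 for siBRMsiHic5 against siBRMsiNS and 6 for the interaction with BRM siRNA. At an adjusted p under 0.01 there were 5 and 3 for siCHD9siNS under vehicle and dex, 0 for siBRMsiNS under either, 7 for siBRMsiHic5 against siNSsiNS under vehicle, 15 for siCHD9siHic5 against siNSsiNS with dex, 12 against siHic5siNS with dex, 23 against siCHD9siNS, 1 for siBRMsiHic5 against siBRMsiNS and 6 for the interaction with BRM siRNA.

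The replicate block called 17 members for siCHD9siNS under vehicle and 11 with dex, 9 for siBRMsiNS under vehicle and 12 with dex, 15 for siBRMsiHic5 against siNSsiNS with dex, 8 for siBRMsiHic5 against siBRMsiNS, 5 and 18 for the interactions with CHD9 and BRM siRNA, 1, 8 and 1 for dex in siHic5siNS, siCHD9siNS and siBRMsiNS, and 1 for the difference of dex responses in siCHD9siNS. In the comparisons of siBRMsiNS and of siBRMsiHic5 with siNSsiNS, and in both interactions, not every same-numbered pair deviated together. The labels place the replicates on different days without saying that a number marks a day across conditions. The block moved no other count of members by over 1.5 times. It also called more of all tested genes in siCHD9siNS under vehicle. There 19.0% rose and 19.1% fell with the block, against 15.7% and 16.5% without it.

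Leaving out 1 library gave 0 to 7 members for siBRMsiNS under vehicle and 0 to 7 with dex, 3 to 5 for siCHD9siNS with dex, 7 to 11 for siBRMsiHic5 against siNSsiNS under vehicle, 15 to 27 for siCHD9siHic5 against siNSsiNS with dex, 12 to 26 against siHic5siNS with dex, 22 to 39 against siCHD9siNS, 1 to 5 for siBRMsiHic5 against siBRMsiNS and 6 to 18 for the interaction with BRM siRNA. Leaving out a pair in the block gave 2 to 7 for dex in siCHD9siNS. Of 1692 values of single members under an alternative, 1618 kept their direction and side of the threshold, 57 lost their call, 6 gained one and 11 changed sign. The sign changes came on leaving out 1 library, none in a called value. For dex, log2 changes ran from -0.0232 to 0.308 (MCM5) and -0.0439 to 0.292 (CDT1) in siCHD9siHic5, -0.411 to 0.0243 (RFC5) in siHic5siNS, -0.372 to 0.0417 (POLD1) in siBRMsiHic5 and -0.0107 to 0.45 (RPA3) in siBRMsiNS. For differences of dex responses they ran from -0.311 to 0.000383 (POLE2, siBRMsiNS), -0.00576 to 0.239 (POLE, siBRMsiHic5) and -0.372 to 0.0371 (RFC3, siHic5siNS). The cause of these changes was not tested. Where 1 library of a group was left out, 2 remained there. The lowest count of a member in any library was 24, and depth was not set against replicate spread.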
